A study of Mus musculus with 2 samples.

Results

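The collagen genes of the count table were the rows whose gene name reads Col, a number, a, and a number, and 44 of the 49492 genes listed matched. They lay on 15 chromosomes of the mouse genome (GRCm38). RNA was sequenced from mammary basal cells, which form the outer layer of the mammary duct and can contract, sorted by flow cytometry from adult wild-type female mice. One group had received clodronate liposomes (CL), which kill the macrophages that take them up, in repeated intraperitoneal injections, and its library (CL basal) is called the CL library. The other group gave the control library (Ctrl basal), for which the sample label states no treatment and the series description states saline. Both were labelled day 7, each group was 1 library, and how many mice went into a library is not stated. The gate kept cells negative for CD45, CD31 and TER119, positive for CD24 and high for CD29.

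Collagens are trimeric proteins of the extracellular matrix in which alpha chains wind into a triple helix. Fibrillar collagens form the fibres of the stroma and are known mainly as products of fibroblasts. Type IV collagen forms the network of the basement membrane, the sheet on which mammary basal cells rest, and types VII, XV and XVIII lie in or beside that sheet. Type XVII collagen is a transmembrane protein of the hemidesmosome, the junction that fixes basal epithelial cells to the basement membrane. FACIT collagens are fibril-associated collagens with interrupted helices, and type VI collagen forms beaded filaments.

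The CL library held 38962512 counts and the control library 37846008. The 10 basal markers listed all had at least 1000 counts, and their summed level in CPM, counts scaled to library size, was 20724 in the CL library and 19778 in the control library. Of these markers 7 were higher in the CL library and 3 lower, with log2 fold changes from -0.23 for *Krt5* to 0.33 for *Mylk* and a median of 0.09. With 1 library per group no difference has a replicate check, and no p-value is given. Differences are given on the log2 scale as CL over control, and the 95% interval beside each is an exact interval on the counts divided by 2. It covers counting error only, not the variation between mice. Fold changes are described where both libraries together held at least 20 counts, which left 17356 genes with a median of -0.01. In sorted bulk cells, fewer cells of a type and less RNA per cell cannot be told apart.

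Of the 44 collagen genes, 40 had at least 20 counts, and the levels of those 40 spanned from the most abundant genes of these cells down to 34 counts over both libraries. Levels are compared between genes as CPM per kilobase of annotated exon. The 5 most abundant collagens were *Col4a1*, *Col9a2*, *Col16a1*, *Col4a2* and *Col17a1*, and together they made up 68.9% of the summed collagen level per kilobase in the control library and 68.5% in the CL library. *Col4a1* stood above 98.8% of the genes tested in the control library and above 98.5% in the CL library. At the other end, 14 collagens in the control library and 16 in the CL library were under 1 CPM per kilobase. The 4 genes under 20 counts were *Col24a1*, with 6 counts in the CL library and 10 in the control library, *Col19a1*, with 10 and 4, *Col10a1*, with 2 and 0, and *Col26a1*, with 0 in both. With both mates of a pair counted, 0 counts allow up to 3 fragments, or 6 counts, which is 0.156 CPM in either library.

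**Figure D1:**
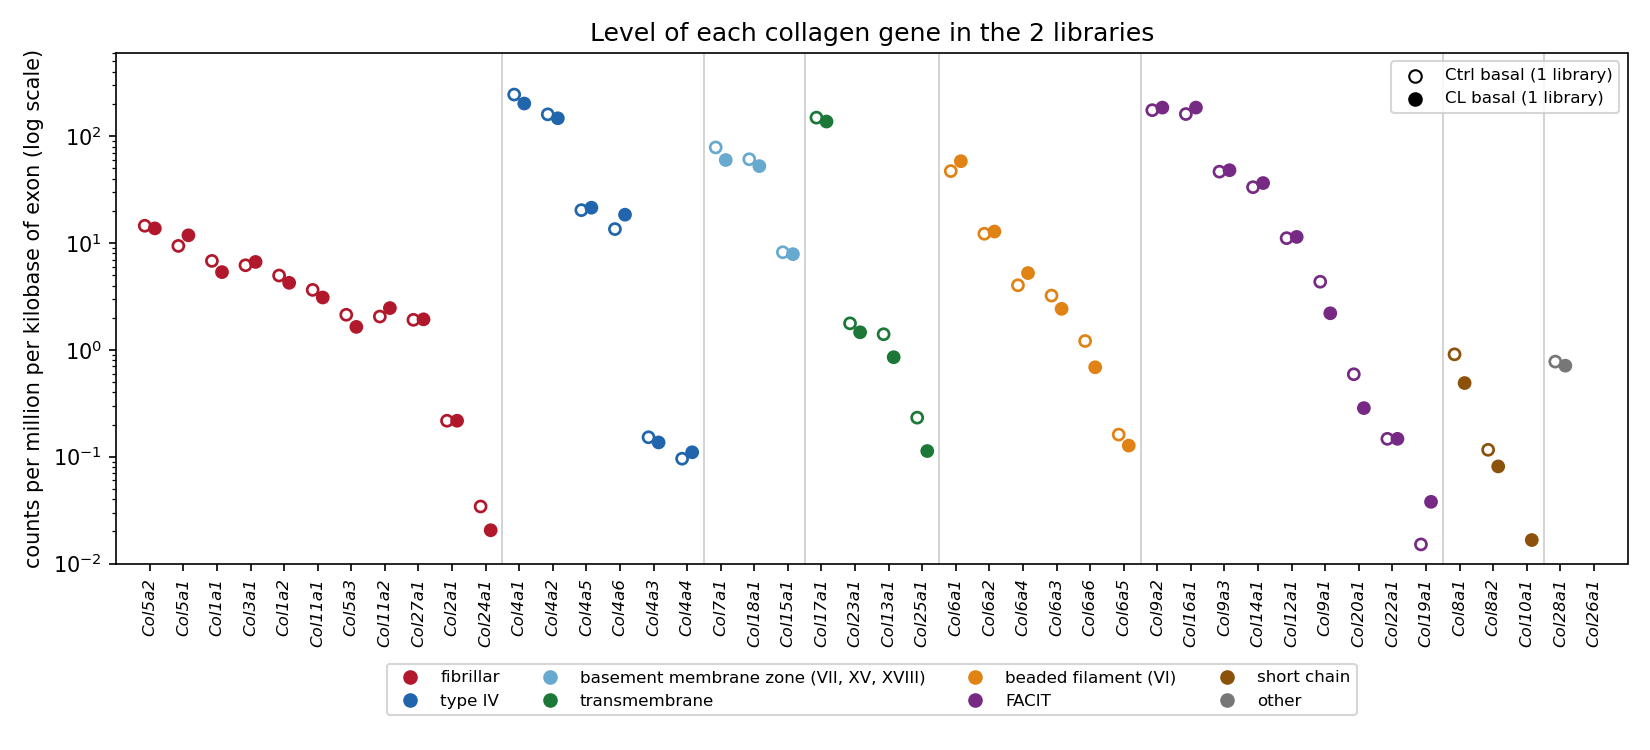
Level of each collagen gene in CPM per kilobase of exon on a log scale, with open circles for the control library and filled circles for the CL library, grouped and coloured by class. Points at 0 are not drawn (*Col26a1* in both libraries, *Col10a1* in the control library). The type IV, transmembrane and FACIT classes each hold genes above 100 CPM per kilobase, while no fibrillar collagen passes 14.5.

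The collagens of the CL and control libraries differed little in total. Summed over all 44 genes, collagen counts were 306870 in the CL library and 323187 in the control library, a log2 ratio of -0.08 (95% interval -0.09 to -0.07). Without *Col4a1* the ratio was -0.03, and without the 13 collagens that share exonic bases with other genes, *Col4a1* and *Col4a2* among them, it was 0.04. With only members sharing over 5% of their exonic bases left out, a choice made after seeing the data, it was -0.08. Of all 17356 genes tested, 8379 were higher and 8977 lower, with equal counts taken as lower. Of the 40 collagens with at least 20 counts, 15 were higher and 23 lower, and *Col2a1* and *Col22a1* had equal counts, with a median of -0.13. Scaling by DESeq2 size factors also gave 15 and 23. Total counts gave 13 higher and 27 lower and the upper quartile 17 and 23, where those with equal counts followed the scaling. Over all genes, total counts gave 7637 higher and 9719 lower, and the upper quartile 9224 and 8132. None of the 40 collagens was at least 2-fold higher in the CL library, against 2.07% of all genes tested. Only *Col20a1* and *Col25a1* were at least 2-fold lower, which is 5.0% of the 40, against 4.78% of all genes (6.86% in either direction). Both were at the threshold, and neither passed it with counts divided by 2, with a prior count of 5, with upper-quartile scaling, or with a trend on mean expression removed. At 1.5-fold, 0 collagens were higher, against 6.34% of all genes, and 6 were lower, 15% against 11.7%. These were *Col25a1*, *Col20a1*, *Col9a1*, *Col8a1*, *Col6a6* and *Col13a1*. The shares of collagens past either threshold in the lower direction were thus near those of all genes. Of the 26 collagens with at least 1000 counts none was past 2-fold, against 0.676% of all genes of that depth, although *Col9a1* was when counts were scaled by their totals.

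Most collagens of low and middle abundance were on the lower side, while the abundant ones were divided. Of the 26 collagens with at least 1000 counts, 14 were higher and 12 lower. All 7097 genes of that depth leaned to the higher side, with 4104 higher and 2993 lower, equal counts taken as lower. For the bands below, all genes are given by their median and not by their split. Of the 23 collagens with at least 2000 counts, 12 were higher and 11 lower in the CL library, and their log2 fold changes ranged from -0.41 to 0.44 with a median of 0.04, beside a median of 0.06 over the 5056 genes of that depth. Of the 9 collagens with at least 200 and under 2000 counts, 2 were higher and 7 lower, with a median of -0.37, beside -0.05 over 6674 genes. Of the 8 with at least 20 and under 200 counts, 1 was higher, 5 were lower and 2 had equal counts in both libraries, with a median of -0.24, beside -0.12 over 5626 genes, of which 18.2% were past 2-fold in one direction or the other. The 95% interval lay wholly above 0 for 9 of the 40 collagens (22.5%, against 18.6% of all genes) and wholly below 0 for 17 (42.5%, against 17.4%). Among genes with at least 1000 counts, those shares were 34.6% against 34.8% above 0, and 42.3% against 21.5% below 0. In that set the collagens had a median of 10066 counts and all genes 3531, so the collagens' intervals were narrower. Shares over genes matched to the collagens in depth were not taken, so the part of depth in either share was not tested. Scaling by the upper quartile put 13 collagens above 0 and 16 below (all genes 22.1% and 14.7%), and scaling by total counts 7 and 18 (all genes 15.4% and 20.7%).

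**Figure D2:**
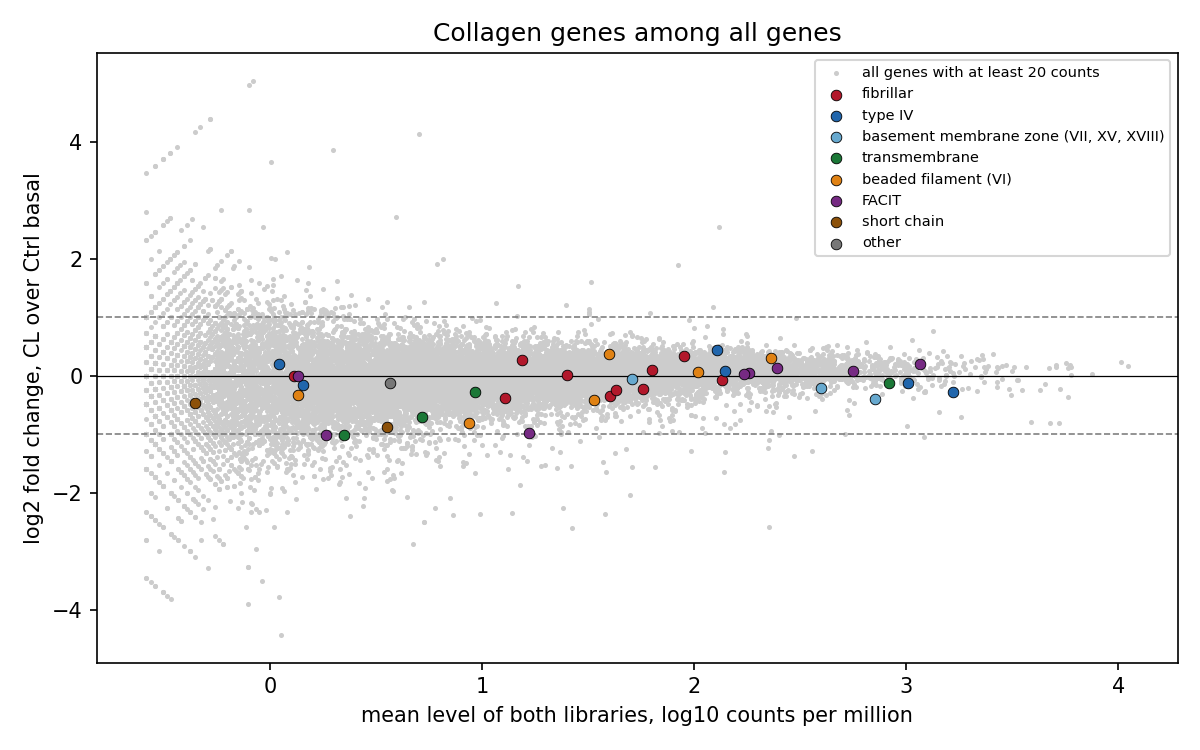
Log2 fold change of the CL library over the control library against the mean level of both libraries (log10 CPM) for all genes with at least 20 counts (grey) and the 40 collagens (coloured by class), with dashed lines at 2-fold. The abundant collagens lie between -0.41 and 0.44, and those past or near the lower line are at low to middle levels.

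Type IV collagen was the most abundant class by counts, with 34.7% of collagen counts in the CL library and 37.2% in the control library. Per kilobase of exon it summed to 389 CPM in the CL library, below the 469 of the FACIT class, and to 439 in the control library, beside 432. Its 6 chains differed in direction. *Col4a1*, on chr8:11198423-11312826, and *Col4a2*, on chr8:11312805-11449287, encode the chains of the network found in nearly all basement membranes. *Col4a1* had 57887 counts in the CL library and 70117 in the control library, a log2 fold change of -0.28 (-0.30 to -0.26). *Col4a2* had 37383 and 40750 counts, a change of -0.13 (-0.16 to -0.10). Both chains were thus lower in the CL library, *Col4a1* by more, and the ratio of their levels per kilobase was 1.37 (1.35 to 1.4) in the CL library and 1.53 (1.5 to 1.55) in the control library.

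*Col4a5*, on chrX:141475385-141689234, and *Col4a6*, on chrX:141165403-141474076, encode the chains of another type IV network, which is known from the basement membrane under several epithelia and around smooth muscle. *Col4a6* had 5641 counts in the CL library and 4136 in the control library, a log2 fold change of 0.44 (0.36 to 0.53), which was the highest of the 40 collagens. *Col4a5* had 5531 and 5223 counts, a change of 0.08 (0.002 to 0.157) whose interval held 0 when counts were scaled by their totals. These chains therefore went the other way from *Col4a1* and *Col4a2*, and the ratio of *Col4a5* to *Col4a6* per kilobase was 1.16 (1.1 to 1.23) in the CL library and 1.5 (1.41 to 1.59) in the control library. The ratio of *Col4a1* to *Col4a5* was 9.42 (9.06 to 9.8) in the CL library and 12.1 (11.6 to 12.6) in the control library. *Col4a3* and *Col4a4*, the chains known from the kidney glomerulus, were near the lower end, with 52 and 58 counts for *Col4a3* in the CL and control libraries and 45 and 39 for *Col4a4*.

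The summed type IV counts were 106539 in the CL library and 120323 in the control library, a log2 ratio of -0.18 (-0.20 to -0.16), and -0.05 without *Col4a1*. The median over the 6 chains was -0.02, and it was 0.01 with scaling by the upper quartile. *Col4a1* and *Col4a2* share 22 exonic bases on opposite strands, 0.295% of *Col4a1*. *Col4a3* shares 563 bases, 5.65% of its exonic length, with *C430014B12Rik*, which had 110 counts in the CL library and 138 in the control library. Whether the counting used strand is not stated, so reads in shared bases cannot be assigned. Outside *Col4a3* and *Col9a3*, the shared part was at most 1.9% of a collagen's exonic bases with any one gene. With every member that shares exonic bases left out, only *Col4a4*, *Col4a5* and *Col4a6* remained, and the summed ratio was 0.25.

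These 4 abundant type IV genes sit as head-to-head pairs, and their start regions are shown because the members of a pair had different fold changes. Each window runs from 250 bases before to 50 bases after a RefSeq start (GRCm38.p6), read 5′ to 3′ on the strand of the gene. Capitals mark, on either strand, the TATA box letters TATAAA, the CCAAT box letters and the GC box letters GGGCGG. The windows are *Col4a1* at chr8:11312777-11313076 (minus strand), *Col4a2* at chr8:11312555-11312854 (plus strand), *Col4a5* at chrX:141475169-141475468 (plus strand) and *Col4a6* at chrX:141474027-141474326 (minus strand).
*Col4a1*: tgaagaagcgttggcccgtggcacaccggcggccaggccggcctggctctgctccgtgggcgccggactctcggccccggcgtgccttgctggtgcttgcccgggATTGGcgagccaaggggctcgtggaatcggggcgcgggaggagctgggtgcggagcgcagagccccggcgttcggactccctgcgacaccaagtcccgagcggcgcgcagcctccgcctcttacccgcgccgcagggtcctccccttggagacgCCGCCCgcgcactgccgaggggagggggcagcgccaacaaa
*Col4a2*: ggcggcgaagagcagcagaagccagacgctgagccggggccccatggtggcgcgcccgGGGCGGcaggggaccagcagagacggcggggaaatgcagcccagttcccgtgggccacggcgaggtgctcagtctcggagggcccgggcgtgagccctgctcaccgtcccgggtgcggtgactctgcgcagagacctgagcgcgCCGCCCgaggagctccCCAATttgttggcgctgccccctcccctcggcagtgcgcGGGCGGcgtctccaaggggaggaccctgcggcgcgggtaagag
*Col4a5*: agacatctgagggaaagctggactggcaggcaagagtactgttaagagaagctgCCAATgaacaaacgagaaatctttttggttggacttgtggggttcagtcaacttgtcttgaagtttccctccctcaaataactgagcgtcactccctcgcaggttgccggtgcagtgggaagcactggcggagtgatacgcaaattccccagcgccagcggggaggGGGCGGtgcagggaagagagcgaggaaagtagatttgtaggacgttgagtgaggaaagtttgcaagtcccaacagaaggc
*Col4a6*: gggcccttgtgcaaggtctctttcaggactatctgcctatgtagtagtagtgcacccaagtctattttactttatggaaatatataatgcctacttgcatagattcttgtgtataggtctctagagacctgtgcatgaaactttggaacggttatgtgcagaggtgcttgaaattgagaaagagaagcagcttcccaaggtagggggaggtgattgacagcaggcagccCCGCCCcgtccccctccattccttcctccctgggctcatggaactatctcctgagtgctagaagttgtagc
The windows of the pair on chromosome 8 share 78 bases, and the starts of *Col4a6* and *Col4a5* lie 1343 bases apart. The windows of *Col4a1* and *Col4a2* had GC contents of 74.0% and 73.7%, and those of *Col4a5* and *Col4a6* 52.7% and 48.3%. TATAAA was in none of the 4 windows and GGGCGG in all 4. The only GGGCGG match of *Col4a1* lies in the 78 shared bases and is the same site as a match of *Col4a2*. CCAAT was in the windows of *Col4a1*, *Col4a2* and *Col4a5* and not in that of *Col4a6*.

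Of the 44 collagen genes, 35 had RefSeq windows, 38 in all. GGGCGG was in 60.5% of the collagen windows and in 35.7% of all 32851 windows of that length, CCAAT in 34.2% and 37.4%, and TATAAA in 13.2% and 13.6%. The site that *Col4a1* and *Col4a2* share counts in the windows of both. None of these motifs contains another, and a match is a description of letters and not evidence of a bound factor.

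The other collagens of the basement membrane zone were lower in the CL library or differed by less than counting error. *Col7a1*, which forms the anchoring fibrils beneath the basement membrane, had 23636 counts in the CL library and 30952 in the control library, a log2 fold change of -0.39 (-0.43 to -0.36). It lies on chr9:108953586-108984875 and had 59.8 CPM per kilobase in the CL library and 78.4 in the control library. *Col18a1*, a basement membrane heparan sulfate proteoglycan and the source of endostatin, had 14132 and 16380 counts, a change of -0.22 (-0.26 to -0.17). *Col15a1*, its close relative, had 1918 and 1995, a change of -0.06 (-0.19 to 0.07). All 3 were on the lower side, and their summed log2 ratio was -0.32 (-0.34 to -0.29), or -0.20 without *Col7a1*.

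Among the transmembrane collagens, *Col17a1* carried nearly all of the expression. *Col17a1*, on chr19:47646344-47692094, had 30274 counts in the CL library and 32999 in the control library, a log2 fold change of -0.13 (-0.16 to -0.10), and a level of 137 CPM per kilobase in the CL library and 149 in the control library. The next member, *Col23a1*, had 322 and 389 counts, a change of -0.27 (-0.59 to 0.03). The level of *Col17a1* per kilobase was 93.5 times that of *Col23a1* in the CL library (80.1 to 110.0) and 84.4 times in the control library (73.3 to 97.7), so the ratios' intervals overlapped.

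*Col13a1*, a transmembrane collagen known from cell adhesions and the neuromuscular junction, had 151 counts in the CL library and 248 in the control library, a log2 fold change of -0.71 (-1.15 to -0.30). *Col25a1*, known from neurons as the precursor of an amyloid plaque component, had 56 and 115, a change of -1.02 (-1.75 to -0.37). All 4 transmembrane collagens were therefore on the lower side, with a median of -0.49 and a summed ratio of -0.14 (-0.17 to -0.10). That sum followed *Col17a1*, and without it the ratio was -0.51. *Col17a1* is the member known from basal epithelial cells. Its difference was smaller than those of *Col13a1* and *Col25a1*, while the interval of *Col23a1* held the value of *Col17a1*.

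**Figure D3:**
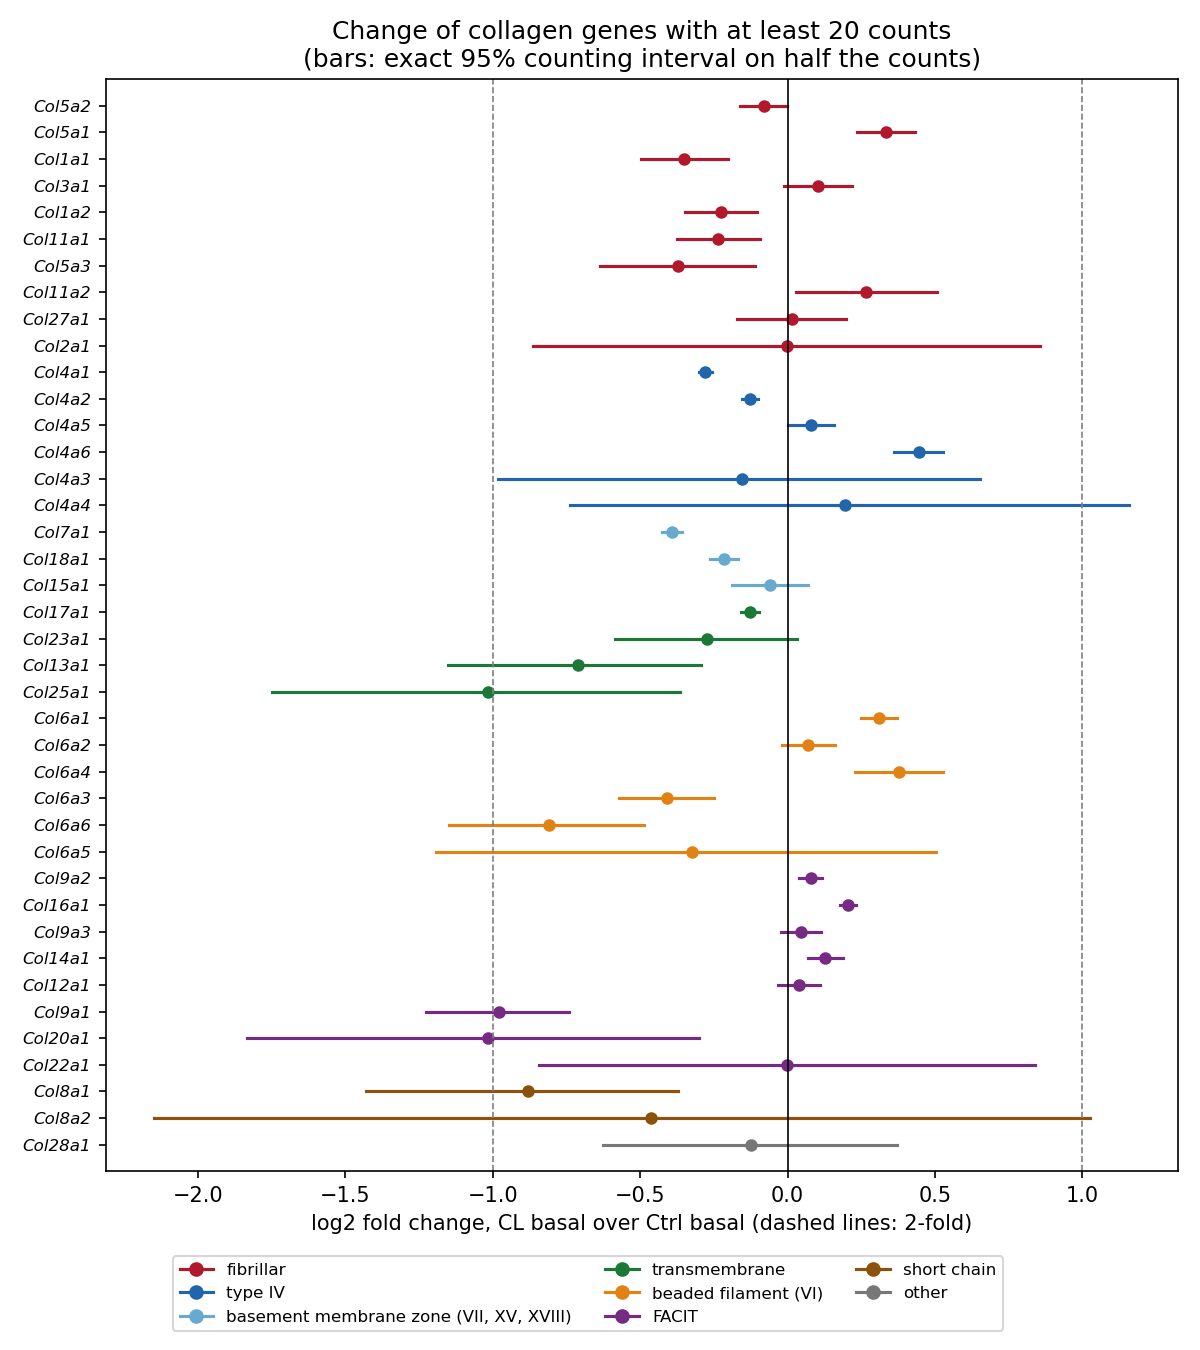
Log2 fold change of the CL library over the control library for the 40 collagens with at least 20 counts, with bars for the exact 95% counting interval on counts divided by 2 and dashed lines at 2-fold. *Col4a6*, *Col6a4*, *Col5a1* and *Col6a1* are the points farthest above 0, and *Col20a1* and *Col25a1*, at -1.02 each, the farthest below.

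The fibrillar collagens were low beside the basement membrane collagens, and they differed from one another in direction. The 11 genes held 5.99% of collagen counts in the CL library and 5.78% in the control library. Their summed level per kilobase was 51.1 CPM in the CL library and 51.8 in the control library, against 389 and 439 for type IV. The most abundant was *Col5a2*, with 13.7 CPM per kilobase in the CL library and 14.5 in the control library, ahead of *Col5a1* and of *Col1a1*, *Col3a1* and *Col1a2*, the chains of the main stromal fibres. *Col5a1* and *Col5a2* belong to type V, which helps set the diameter of fibres, and both were above the type I chains per kilobase in both libraries. Exon length is the union over annotated transcripts, so such an order between genes depends on the annotation, whereas a change of a ratio between the libraries does not.

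*Col1a1* had 1346 counts in the CL library and 1713 in the control library, a log2 fold change of -0.35 (-0.50 to -0.20). Its partner in type I collagen, *Col1a2*, had 2027 and 2366, a change of -0.23 (-0.35 to -0.10). The ratio of *Col1a1* to *Col1a2* per kilobase was 1.26 (1.14 to 1.39) in the CL library and 1.37 (1.25 to 1.5) in the control library, so both chains of type I collagen were lower while the intervals of their ratio overlapped. *Col3a1*, the chain of type III collagen, had 2508 and 2330 counts, a change of 0.10 (-0.01 to 0.22). Type III was thus not lower with type I, and the ratio of *Col3a1* to *Col1a1* was 1.25 (1.13 to 1.37) in the CL library and 0.909 (0.832 to 0.994) in the control library.

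*Col5a1* had 3861 counts in the CL library and 3058 in the control library, a log2 fold change of 0.33 (0.24 to 0.43), the highest among the fibrillar genes. *Col5a2* had 5037 and 5318, a change of -0.08 (-0.16 to -0.002) whose interval held 0 with scaling by the upper quartile or by DESeq2 size factors. The ratio of *Col5a1* to *Col5a2* was 0.866 (0.816 to 0.919) in the CL library and 0.65 (0.61 to 0.692) in the control library. The third chain of type V, *Col5a3*, had 430 and 556 counts, a change of -0.37 (-0.64 to -0.11), so the 3 chains of type V differed in direction.

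Type XI collagen, the counterpart of type V in cartilage, was split as well. *Col11a1* had 1515 counts in the CL library and 1779 in the control library, a log2 fold change of -0.24 (-0.38 to -0.09). *Col11a2* had 647 and 537, a change of 0.27 (0.03 to 0.51) whose interval held 0 when counts were scaled by their totals. *Col27a1* had 966 and 955 counts, and *Col2a1*, the main collagen of cartilage, 50 in each library. Over the 10 fibrillar collagens with at least 20 counts the intervals were above 0 for 2 (20%, against 18.6% of all genes) and below 0 for 5 (50%, against 17.4%). Of the 8 with at least 1000 counts, 2 were above 0 and 4 below, against 34.8% and 21.5% of all genes of that depth. None of the 10 was past 1.5-fold, and the median was -0.04. The summed fibrillar ratio was -0.03 (-0.07 to 0.02), and 0.01 with scaling by the upper quartile. *Col3a1* and *Col5a1* share exonic bases with other genes, at most 1.44% with any one of them, and without those 2 genes the summed ratio was -0.15.

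The FACIT class was the second by counts and rested on *Col16a1* and *Col9a2*. *Col16a1*, on chr4:130047840-130099283, had 48003 counts in the CL library and 41559 in the control library, a log2 fold change of 0.21 (0.18 to 0.23). *Col9a2*, on chr4:121039385-121055322, had 22011 and 20795 counts, a change of 0.08 (0.04 to 0.12). Each stood at 185 CPM per kilobase in the CL library. *Col14a1*, which binds the surface of interstitial fibres, had 9823 and 8967, a change of 0.13 (0.07 to 0.19). *Col12a1*, its relative, had 6679 and 6492, a change of 0.04 (-0.03 to 0.11). The FACIT sum was higher in the CL library by a log2 ratio of 0.13 (0.11 to 0.15), and by 0.06 without *Col16a1*, and the class made up 30.7% of collagen counts in the CL library and 26.5% in the control library.

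Type IX collagen, a trimer of 3 chains known from cartilage and the eye, was uneven in these cells. *Col9a3* had 7113 counts in the CL library and 6878 in the control library, a log2 fold change of 0.05 (-0.02 to 0.11), and 234 of its bases, 6.07% of its exonic length, are shared with *Tcfl5*, which had 90 and 81 counts. *Col9a1* had 428 counts in the CL library and 844 in the control library, a change of -0.98 (-1.23 to -0.74). It was the one collagen with at least 1000 counts past 1.5-fold, 1 of 26, against 3.27% of all genes of that depth. Per kilobase, *Col9a2* was 84.2 times *Col9a1* in the CL library (73.6 to 96.9) and 40.3 times in the control library (36.6 to 44.6). The ratio of *Col9a2* to *Col9a3* was 3.85 (3.71 to 4.0) in the CL library and 3.76 (3.62 to 3.91) in the control library, so within type IX the difference lay in *Col9a1*.

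*Col9a1* has 2 RefSeq starts, which the counts per gene do not separate, and their windows are shown because this gene had the lowest fold change among the 26 collagens with at least 1000 counts. They lie at chr1:24177360-24177659 and chr1:24194953-24195252, both on the plus strand of GRCm38.p6, with capitals as above.
*Col9a1*, first start: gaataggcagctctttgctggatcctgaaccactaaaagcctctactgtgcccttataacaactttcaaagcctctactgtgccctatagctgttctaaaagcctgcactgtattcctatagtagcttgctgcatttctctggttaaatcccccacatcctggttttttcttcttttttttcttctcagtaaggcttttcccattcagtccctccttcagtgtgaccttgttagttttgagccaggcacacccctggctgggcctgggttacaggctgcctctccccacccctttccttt
*Col9a1*, second start: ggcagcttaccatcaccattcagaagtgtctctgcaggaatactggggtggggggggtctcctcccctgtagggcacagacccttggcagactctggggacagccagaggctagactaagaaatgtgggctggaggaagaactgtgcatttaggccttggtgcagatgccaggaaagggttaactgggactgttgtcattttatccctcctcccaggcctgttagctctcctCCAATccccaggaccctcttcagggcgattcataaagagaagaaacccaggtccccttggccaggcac
The first window held none of the 3 motifs and the second held CCAAT alone.

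The other FACIT genes were near the lower end. *Col20a1* had 46 counts in the CL library and 95 in the control library, a log2 fold change of -1.02 (-1.84 to -0.30), and it shares 79 bases, 1.88% of its exonic length, with *9230112E08Rik* on the same strand, which had 93 and 90 counts. *Col22a1*, known from tissue junctions, had 52 counts in each library. Of the 8 FACIT genes with at least 20 counts, 5 were higher, 2 lower and *Col22a1* had equal counts, with a median of 0.04. The median was -0.02 with a trend on mean expression removed.

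The chains of type VI collagen differed in direction. *Col6a1* had 9820 counts in the CL library and 7910 in the control library, a log2 fold change of 0.31 (0.25 to 0.37). *Col6a2* had 4103 and 3899, a change of 0.07 (-0.02 to 0.16). *Col6a3*, the third chain of the classical trimer, had 1114 and 1477, a change of -0.41 (-0.57 to -0.25). Per kilobase, *Col6a1* was 4.55 times *Col6a2* in the CL library (4.32 to 4.79) and 3.86 times in the control library (3.65 to 4.07). It was 24.1 times *Col6a3* in the CL library (22.1 to 26.3) and 14.6 times in the control library (13.5 to 15.8). *Col6a3* was thus the scarce chain of the trimer in both libraries.

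The further type VI chains were split too. *Col6a4* had 1713 counts in the CL library and 1315 in the control library, a log2 fold change of 0.38 (0.23 to 0.53). *Col6a6* had 242 and 425, a change of -0.81 (-1.15 to -0.49). *Col6a5* had 46 and 58, with an interval that held 0. The summed type VI ratio was 0.17 (0.13 to 0.22) and 0.01 without *Col6a1*, while the median over the 6 genes was -0.13.

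Of the short chain collagens, *Col8a1*, known from vessel walls and the cornea, had 96 counts in the CL library and 178 in the control library, a log2 fold change of -0.88 (-1.43 to -0.37). *Col8a2* had 14 and 20. The summed ratio of the class was -0.83 (-1.33 to -0.34), and -0.33 without *Col8a1*. *Col28a1*, known from peripheral nerve, had 134 and 146 counts.

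Genes that make, process and cross-link collagen and genes of its receptors were listed in 4 groups. The 18 genes of hydroxylation and folding all had at least 20 counts, 10 were higher and 8 lower, none was past 1.5-fold, and the median was 0.02. *P4hb*, the beta subunit of prolyl hydroxylase, had 23831 counts in the CL library and 20745 in the control library, a log2 fold change of 0.20 (0.16 to 0.24). *Serpinh1*, the collagen chaperone of the endoplasmic reticulum, had 9232 and 9292, a change of -0.01 (-0.07 to 0.05). *Ppib*, a prolyl isomerase, had 9673 and 9490, a change of 0.02 (-0.03 to 0.08). This group therefore stayed close to the median of all genes.

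Of the 8 genes of propeptide processing, 7 had at least 20 counts (*Tll2* was at 0 in both libraries), 2 were higher and 5 lower, and the median was -0.40. *Bmp1*, the procollagen C-proteinase, had 3233 counts in the CL library and 3586 in the control library, a change of -0.15 (-0.25 to -0.06). *Adamts2*, the N-proteinase of fibrillar procollagens, had 635 and 867, a change of -0.45 (-0.67 to -0.24). *Tll1* had 522 and 465, a change of 0.16 (-0.10 to 0.42). *Adamts3* and *Adamts14*, named after their values were seen, were the highest and lowest of the list, with changes of 0.51 (0.05 to 0.99) and -0.95 (-1.83 to -0.19).

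Of the 6 cross-linking genes, 1 was higher and 5 lower, with a median of -0.36. *Pxdn*, the peroxidase that cross-links type IV collagen, had 1544 counts in the CL library and 1969 in the control library, a log2 fold change of -0.35 (-0.49 to -0.22). *Loxl2*, a lysyl oxidase, had 410 and 639, a change of -0.64 (-0.90 to -0.39). *Loxl3* had 669 and 574, a change of 0.22 (-0.01 to 0.45). *Loxl4* was the one gene of the 4 groups past 2-fold, with 56 and 114 counts and a change of -1.003 (-1.74 to -0.35), and it was no longer past it under 5 of the alternative settings. That is 1 of 39 genes with at least 20 counts (2.56%), against 4.78% of all genes lower by that much.

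Of the 10 collagen receptors, 8 had at least 20 counts, 1 was higher and 7 lower, with a median of -0.16. *Itgb1*, the beta subunit of the collagen-binding integrins and the protein that the CD29 gate selects, had 31272 counts in the CL library and 32056 in the control library. *Itga2*, the alpha subunit of one of those integrins, had 920 and 1715, a log2 fold change of -0.90 (-1.07 to -0.74). *Ddr1*, a receptor tyrosine kinase for collagen in epithelia, had 3957 and 3968, a change of -0.01 (-0.10 to 0.08). *Itga2* was thus the receptor with the lowest fold change, while the abundant *Itgb1* and *Ddr1* were near 0.

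Markers of other cell types differed between the libraries as well, and their part in the collagen differences was not tested. All 15 luminal markers were lower in the CL library, 7 of them past 2-fold (46.7%, against 4.78% of all genes), with a median of -0.97 and a summed level of 3507 CPM in the CL library and 5838 in the control library. Of 15 fibroblast markers, 13 were lower, 4 of them past 2-fold (26.7%), and 2 higher, with a median of -0.53 and a sum of 1171 and 1257 CPM. That sum was mostly *Postn* and *Fbln2*, and without them, a choice made after their values were seen, it was 79.4 CPM in the CL library and 125 in the control library. All 7 pericyte markers with at least 20 counts were lower, with a median of -0.71 and a sum of 101 and 154 CPM, and *Higd1b* had 0 counts in the CL library and 7 in the control library. Of 12 endothelial markers, 10 were lower, with a median of -0.27 and a sum of 476 CPM in the CL library and 582 in the control library, although the gate removes CD31-positive cells. Markers of stromal and vascular cells were thus present in both libraries and mostly lower in the CL library.

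Of 12 macrophage markers, 9 had at least 20 counts, 2 of them higher and 7 lower, with a sum of 29.2 CPM in the CL library and 38.7 in the control library and a median of -0.33. Past 2-fold, 1 was higher, *Mpeg1* with 88 counts in the CL library and 28 in the control library, and 1 lower, *C1qc* with 6 and 16 (11.1% each, against 2.07% and 4.78% of all genes). The most abundant, *Cd14*, had 468 and 748 counts, and *Mrc1* had 86 and 168. *Fcgr1* had 4 counts in the CL library and 0 in the control library. For 8 adipocyte markers, 5 had at least 20 counts, 1 higher and 4 lower, with 107 and 140 CPM and a median of -0.74. That sum was mostly *Fabp4*, at 3465 and 4648 counts, while *Adipoq* had 10 and 5. *Plin1*, with 12 and 30 counts, was past 2-fold lower (20% of the 5, against 4.78% of all genes). Its interval, -2.98 to 0.12, held 0. For 8 Schwann cell markers, 7 had at least 20 counts, 2 higher and 5 lower, with 232 and 215 CPM and a median of -0.11. *Gfra3* was at 0 counts in the CL library and 4 in the control library. Most of the Schwann sum was *Sox10*, at 5278 and 5333 counts, and the higher sum came with *Ngfr*, at 2235 and 1383. *S100b*, at 5 and 30, was past 2-fold lower (14.3% of the 7, against 4.78% of all genes). For 8 cornified keratinocyte markers, 6 had at least 20 counts, 3 higher and 3 lower, with 34.0 and 34.3 CPM and a median of 0.11. *Flg* was at 0 in both libraries and *Krtdap* at 2 counts in the CL library and 0 in the control library. Within that last list *Krt1* had 367 counts in the CL library and 19 in the control library, and *Krt10* had 262 and 38. Both were past 2-fold higher, 2 of the 6, against 2.07% of all genes, whereas *Sbsn*, the most abundant per kilobase, had 615 and 1196. The markers named in these lists, other than those at 0 counts in a library, were picked after their values were seen.

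**Figure D4:**
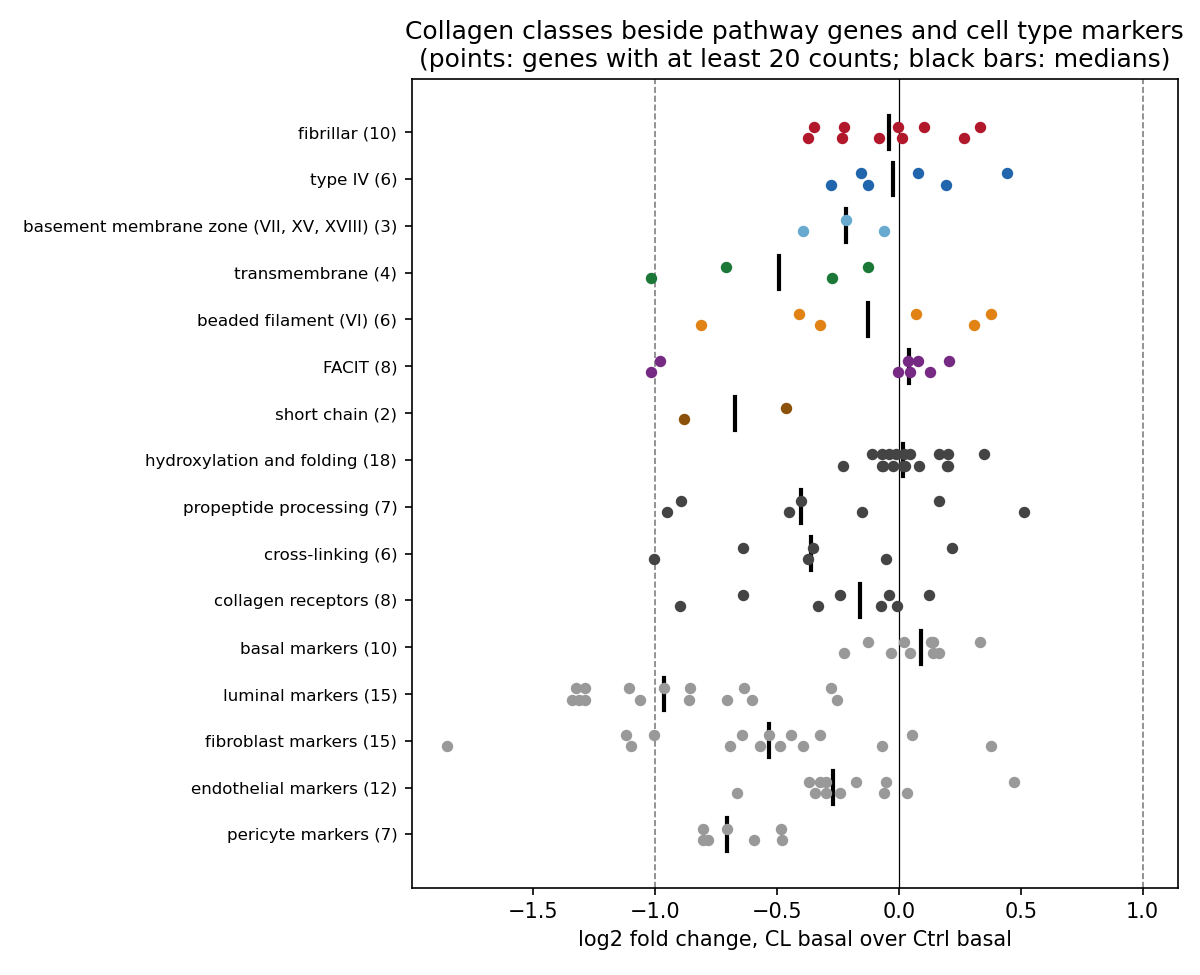
Log2 fold change of the CL library over the control library for genes with at least 20 counts in the collagen classes (coloured), the 4 pathway groups (dark grey) and the basal, luminal, fibroblast, endothelial and pericyte marker lists (light grey), with the number of genes in brackets, black bars at the medians and dashed lines at 2-fold. The medians run from -0.97 for luminal markers to 0.09 for basal markers, and the type IV and fibrillar classes, at -0.02 and -0.04, lie near 0.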

How the data were processed

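RNA was measured in 2 libraries of sorted mammary basal cells, the CL and control libraries. The authors deposited raw counts of reads per gene, with no normalization, in a table laid out as featureCounts writes it. The submitters' processing notes name the builds GRCm38 and mm10, and all 44 collagens overlapped the gene of that name in GENCODE M21, 43 of them with the same start and end. The aligner, annotation release, strand setting and filters are not given in the sources used here. The table also held 2 columns of the authors' own comparison, a ratio and its log2, which were not used. Dates stood in place of 26 gene names.

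Low counts were mostly even (68.7% of values from 1 to 20 in the CL library and 67.9% in the control library, against 49.9% and 49.7% above 1000), as when both mates of a pair are counted, so exact Clopper-Pearson 95% intervals (scipy 1.17.1, Python 3.11.15) were computed on counts divided by 2. Any PCR copies left in make them too narrow. Counts were scaled by TMM in edgeR 4.0.16 (R 4.3.3), with a factor of 0.9866 (CL basal) and 1.0136 (Ctrl basal). Fold changes used a prior count of 2, and sums and class ratios none. Annotated exon length is the union over transcripts, so a gene with long rare exons is understated per kilobase. Every collagen was named, and of the pathway lists the genes past 2-fold and the 3 with most counts per kilobase. Other genes were named where their exons overlap a collagen, though not in every case, cell type markers where they were at 0 counts in a library, and further markers with Adamts3 and Adamts14 after their values were seen. The members, classes and lists were chosen with earlier results of these data known. The calculation was tested on simulated counts with counting error only. These had no doubling of mates and no variation between mice, so the test does not cover either. Alternatives were other scalings (total counts, DESeq2 1.42.0 size factors, upper quartile), prior counts of 0.5 and 5, other count minimums, trends removed (statsmodels 0.14.6), counts divided by 2, a 1.5-fold threshold, and members left out. The promoter windows came from RefSeq.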

Additional observations from a re-analysis of the deposited data

How the results depend on the processing

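Of 188 values under alternative settings, 152 stayed within 1.5 times the count or within the counting interval of the value reported, and 36 moved. No paired analysis was possible because there was 1 library in each group. The count of collagens at least 2-fold lower, 2 as reported, was 0 with counts divided by 2, with upper-quartile scaling, with a prior count of 5 or with a trend on mean expression removed, 1 with a trend on gene length removed, 3, with *Col9a1*, with scaling by total counts and 6 at 1.5-fold, and the count of higher collagens was 0 under every alternative run. The count of pathway genes at least 2-fold lower, 1 as reported, was 0 with counts divided by 2, with upper-quartile scaling, with a prior count of 5 or with either trend removed. The median of type IV collagen was -0.128 with at least 100 counts, 0.194 with overlapping members left out, and 0.08 with members sharing over 5% of their exonic bases left out, the last chosen after seeing the data. The median of the basement membrane zone was -0.301 with the trend on mean expression removed. Scaling by total counts and by the upper quartile gave summed ratios of 0.094 and 0.169 for FACIT, -0.117 and -0.041 for all collagens, -0.356 and -0.28 for the basement membrane zone, -0.174 and -0.099 for transmembrane and -0.217 and -0.142 for type IV. Without members that overlap other genes the sums were 0.042 for all collagens, -0.216 for the basement membrane zone, -0.147 for fibrillar and 0.252 for type IV, which drops *Col4a1* and *Col4a2*. With only members sharing over 5% of their exonic bases left out, the sums were -0.081 for all collagens and -0.179 for type IV. Without the most abundant member they were 0.062 for FACIT, -0.027 for all, -0.198 for the basement membrane zone, 0.006 for type VI, -0.325 for short chain, -0.511 for transmembrane and -0.048 for type IV. Scaling moved the median of all genes between -0.045 and 0.029. Differences of that size between the libraries depend on the scaling, and what depth and 1 library per group leave unknown is the spread between mice.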
